A study of Drosophila melanogaster with 54 samples.

Results

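The 47 genes described here encode subunits of the 26S proteasome of Drosophila melanogaster and related copies of those subunits. They are all entries of the deposited expression table whose symbol begins with Prosalpha, Prosbeta, Rpn or Rpt followed by a number, 47 of 13926 gene symbols. The symbols sort them into 14 genes of the 20S core (7 of the alpha ring and 7 of the beta ring), 18 genes of the 19S regulatory particle (10 of the base, 8 of the lid) and 15 copies whose symbol carries a T or an R after the subunit name. Every one of the 47 reached 1 TPM, a measure of transcript abundance scaled to gene length and library total, in all 54 libraries, so none was lost to the filter on low values.

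RNA was sequenced from whole male flies, 10 days old, of 6 strains reared at 18, 25 or 29 °C. Flies of 5 strains carried FLucDM-GFP, a mutant firefly luciferase that misfolds readily, joined to green fluorescent protein: Cyto-FLucDM-GFP in 1 copy (cytoplasm), NLS-FLucDM-GFP in 1 or 2 copies (nucleus) and Mito-FLucDM-GFP in 1 or 2 copies (mitochondria). They are called Cyto 1 copy, NLS 1 copy, NLS 2 copies, Mito 1 copy and Mito 2 copies below, and w1118 was the isogenic control strain without the transgene. Each strain had 3 libraries at each temperature, which makes 18 groups. The promoter that drives the transgene is not given in the sources used here, nor is it stated whether the replicates were separate cultures. Every p-value below therefore reflects how far these libraries scatter, which may be technical.

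The proteasome degrades proteins tagged with ubiquitin. Its core is a barrel of stacked rings: alpha subunits form the outer rings and gate the entrance, and beta subunits form the inner rings, where Prosbeta1, Prosbeta2 and Prosbeta5 carry the caspase-like, trypsin-like and chymotrypsin-like active sites. The regulatory particle caps the barrel, with Rpt ATPases in the base that unfold the substrate, Rpn10 and Rpn13 that bind ubiquitin, and the lid enzyme Rpn11 that cuts ubiquitin off. In Drosophila many subunits have a second gene expressed mainly in the male germ line, and Prosalpha6T is known to be needed for sperm development.

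Values are TPM as deposited by the authors, which are scaled for transcript length, so levels can be compared between genes. TPM holds no read counts and the depth of each library is unknown. Libraries of the same group correlated at 0.9903 to 0.9969 (Pearson, log2 scale, across genes). The yolk protein genes Yp1, Yp2 and Yp3, a mark of females, summed to 2.48 to 50.4 TPM, highest in a Cyto 1 copy library at 29 °C.

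Core genes were expressed above regulatory particle genes, and both above the copies. The mean over 54 libraries averaged 190.1 TPM over the 14 core genes, 118 TPM over the 18 regulatory particle genes and 45.9 TPM over the 15 copies. Per gene, the core exceeded the regulatory particle by 1.53 to 1.75 times in every library. In the core, Prosalpha2 averaged 246 TPM and Prosbeta7 235 TPM, while Prosalpha4 averaged 123 TPM. Prosalpha1 was listed at a mean of only 38.2 TPM, a value taken up below. The core mean, ratio and sums leave out its near copy, listed as CG30382 (mean 374 TPM), and would be higher with it. In the regulatory particle the lid subunit Rpn6 was the most abundant at 208 TPM, with Rpn10 at 153 TPM, and the lowest were the scaffold Rpn1 at 83.7 TPM and the lid subunit Rpn3 at 88.2 TPM.

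**Figure D1:**
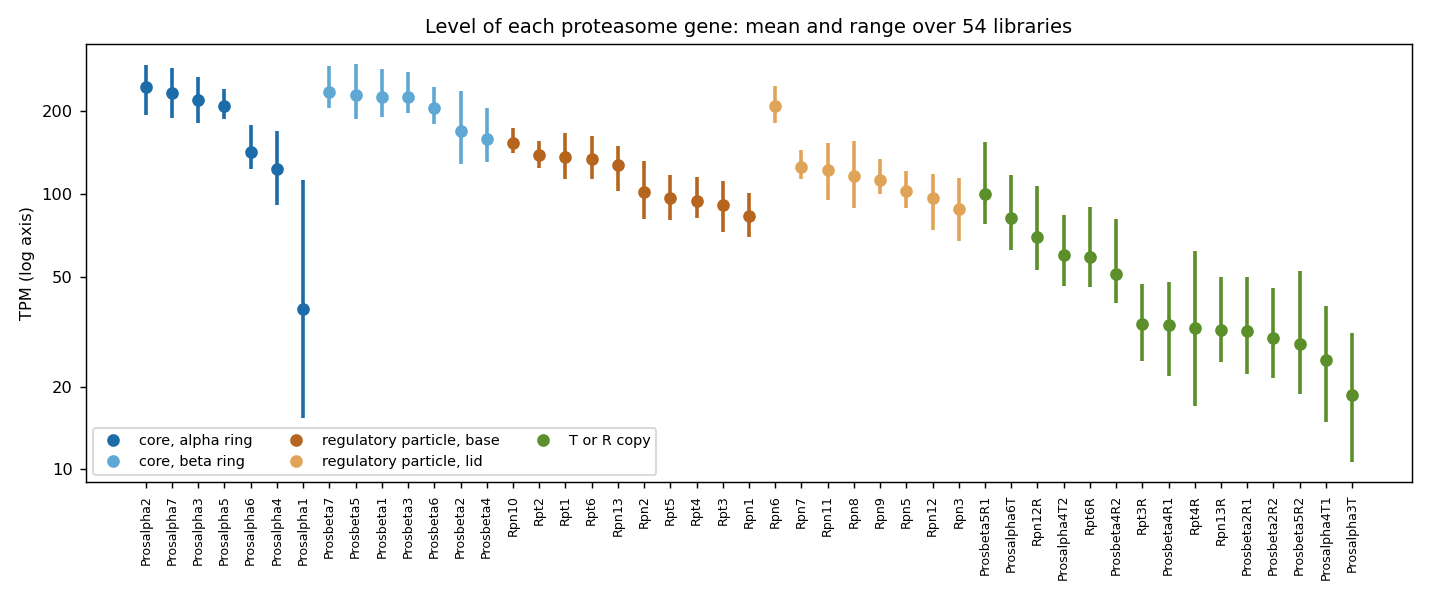
Level of each of the 47 genes in TPM on a log axis, as the mean (point) and the range (line) over 54 libraries, ordered by class and by mean. Core genes other than Prosalpha1 lie between 123 and 246 TPM, regulatory particle genes between 83.7 and 208 TPM, and copies between 18.6 and 100.4 TPM.

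The copies ranged from 18.6 TPM for Prosalpha3T and 24.9 TPM for Prosalpha4T1 to 82.2 TPM for Prosalpha6T and 100.4 TPM for Prosbeta5R1. Each was set beside the subunit it is named after, library by library. The lowest share was that of Prosalpha3T, with a median of 8.34% of the Prosalpha3 level, followed by Prosbeta5R2 at 11.7% of Prosbeta5. At the other end, Rpn12R reached a median of 70.6% of Rpn12, above it in its highest library, and Prosalpha6T reached 57.2% of Prosalpha6. Between these, Prosalpha4T2 stood at 50.7% and Prosalpha4T1 at 20.8% of Prosalpha4. Prosbeta5R1 stood at 43.1% of Prosbeta5. Prosbeta4R2 stood at 31.0% and Prosbeta4R1 at 20.4% of Prosbeta4, while Prosbeta2R1 stood at 18.3% and Prosbeta2R2 at 18.0% of Prosbeta2. Of the regulatory particle copies, Rpt6R stood at 43.4%, Rpt3R at 37.7%, Rpt4R at 33.3% and Rpn13R at 24.9% of their general subunits.

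The genes are scattered over the genome. On the BDGP6 annotation the copies lie on 2L (4), 2R (2), 3L (2), 3R (5) and X (2), and Prosbeta4R1 (2L, 2653046 to 2653926) and Prosbeta4R2 (2L, 2655394 to 2657102) are neighbours on the same strand. The library kit does not mark strand, and exons of some genes overlap exons on the other strand, most of all Rpt6, where 13.0% of exon bases are shared with CG1801. Reads in such stretches cannot be assigned to one strand from these values.

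Among themselves the genes differed in how steady they were. Rpn10, the ubiquitin receptor, had the lowest coefficient of variation over all libraries (4.78%), with Rpn7 at 5.39%. The copies ran from 13.8% for Prosalpha4T2 to 30.9% for Rpt4R. Prosalpha1 was the most variable of all at 51.8%.

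Rearing temperature moved nearly all general subunits in the same direction. The comparison asks whether warmer rearing goes with more proteasome transcripts, here 29 °C against 18 °C averaged over the 6 strains (18 libraries each). Of the 32 core and regulatory particle genes, 30 rose at 29 °C, none fell and 2 (Prosalpha1 and Rpn7) did not pass. Over all 12555 genes tested, 77.8% passed in this comparison (42.9% higher, 34.9% lower), so passing alone does not mark these genes. The median log2 fold change was 0.29 for the core and 0.24 for the regulatory particle, beside 0.03 for all genes. With quantile normalization 28 rose and 1 fell, and with median-ratio size factors 29 rose and none fell.

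The catalytic subunit Prosbeta2 was at 128 to 165 TPM at 18 °C (median 141), at 148 to 187 TPM at 25 °C (median 172) and at 165 to 237 TPM at 29 °C (median 197). The 29 °C libraries overlapped those at 18 °C only at the edge, and the log2 fold change of 29 over 18 °C was 0.48 (SE 0.02, limma, Benjamini-Hochberg adjusted p = 1.33e-23). Prosbeta5, the chymotrypsin-like subunit, was at 190.3 to 226 TPM at 18 °C, 188 to 255 TPM at 25 °C and 216 to 297 TPM at 29 °C, a log2 fold change of 0.38 (SE 0.02). Prosbeta1, the caspase-like subunit, rose by 0.33 (SE 0.02) between the same temperatures. Other beta subunits, which carry no active site, rose less, from 0.10 for Prosbeta4 to 0.22 for Prosbeta7. In the alpha ring the rise ran from 0.09 for Prosalpha5 to 0.41 for Prosalpha4.

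In the lid, Rpn8, the partner of the deubiquitinase Rpn11, was at 88.8 to 112 TPM at 18 °C (median 98.2), 106 to 117 TPM at 25 °C (median 109) and 128 to 156 TPM at 29 °C (median 139.8). All 18 libraries at 29 °C lay above all 36 at the lower temperatures. Its log2 fold change of 29 over 18 °C was 0.49 (SE 0.02, limma, adjusted p = 1.33e-25). Rpn3, a scaffold subunit of the lid, was at 67.5 to 83.3 TPM at 18 °C, 78.6 to 91.1 TPM at 25 °C and 96.9 to 114.7 TPM at 29 °C, again without overlap between 29 °C and the lower temperatures (log2 0.49, SE 0.02, adjusted p = 5.27e-24). Rpn11 itself rose by 0.42 (SE 0.02) and was likewise free of overlap, at 132 to 153 TPM at 29 °C against 95.2 to 118 TPM at 18 °C. Rpn7, another lid subunit, showed no such step: 119 to 141 TPM at 18 °C, 113 to 126 TPM at 25 °C and 120.1 to 144 TPM at 29 °C (log2 0.02, SE 0.02, adjusted p = 0.449).

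All 10 base genes rose at 29 °C, from 0.05 for Rpn10 to 0.31 for the scaffold Rpn2. The ATPases Rpt1, Rpt3, Rpt4, Rpt5 and Rpt6 lay close together between 0.25 and 0.28, with Rpt2 lower at 0.14. The sizes of the rise thus differed within each ring and within base and lid.

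**Figure D2:**
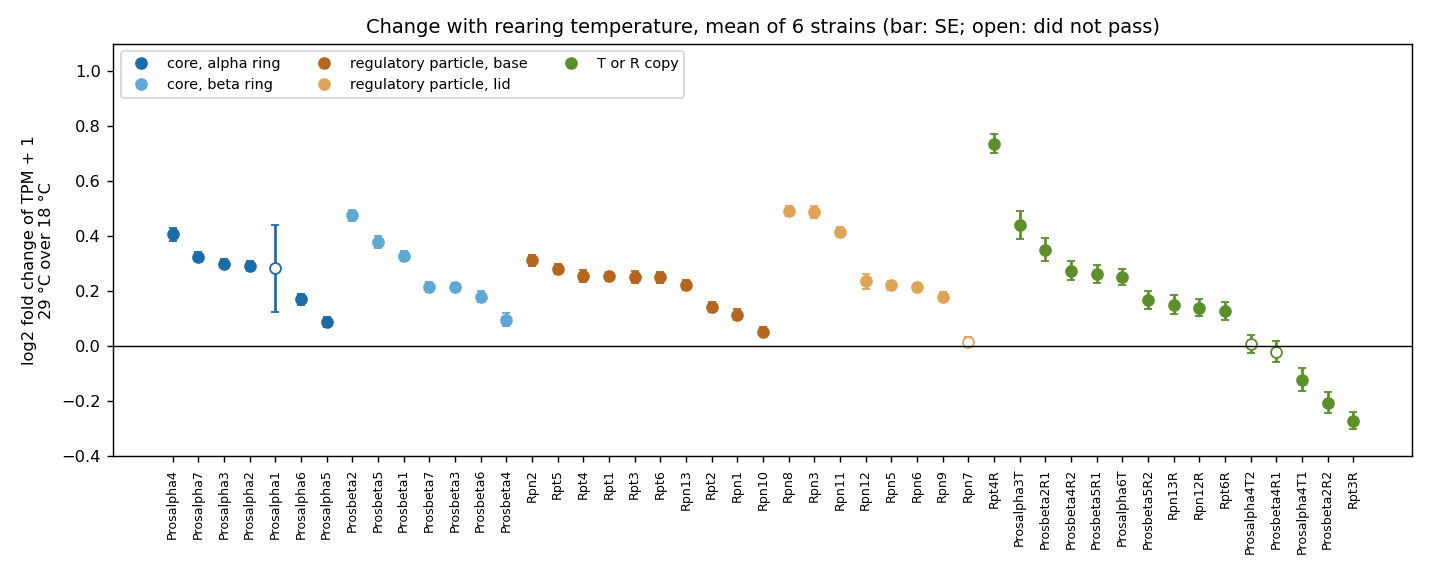
Log2 fold change of TPM + 1 at 29 °C over 18 °C for each gene, averaged over 6 strains, with its standard error. Filled points passed the test and open points did not. Core and regulatory particle genes lie above 0, up to 0.49 for Rpn8, and the copies spread from -0.27 for Rpt3R to 0.74 for Rpt4R.

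Most of the rise lay between 25 and 29 °C. Of the 32 general subunits, 31 rose at 29 against 25 °C (63% of all genes passed, 36.3% higher) with a median of 0.20, beside 0.02 for all genes. From 25 against 18 °C, 17 rose and 4 fell (64.1% of all genes passed, 31.8% higher), with a median of 0.05 beside 0.00 for all genes. The summed core was at 2293 to 2669 TPM at 18 °C, 2404 to 2763 TPM at 25 °C and 2757 to 3207 TPM at 29 °C, so the 29 °C libraries lay above all at 18 °C and overlapped narrowly with those at 25 °C. The summed regulatory particle was at 1853 to 2155 TPM, 1990.2 to 2128 TPM and 2268 to 2532 TPM at the same temperatures, with no overlap between 29 °C and the lower temperatures. Accessory gland and muscle markers, as lists of 13 genes each, went the other way at 29 against 18 °C (11 and 12 lower, medians -0.58 and -0.42), and their part in the result was not tested. In whole flies, a changed share of an organ and a changed amount of RNA per cell cannot be told apart.

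The copies followed temperature less uniformly. At 29 against 18 °C, 10 of 15 rose, 3 fell and 2 did not pass, with a median of 0.15. Over all genes, 42.9% rose and 34.9% fell. The largest rise of all 47 genes was that of Rpt4R, the copy of an ATPase of the base, at 17.0 to 30.7 TPM at 18 °C (median 24.7), 22.3 to 42.6 TPM at 25 °C (median 32.7) and 29.3 to 62.0 TPM at 29 °C (median 37.5). Libraries at 29 °C overlapped those at 18 °C only at the edge, and the log2 fold change was 0.74 (SE 0.03, limma, adjusted p = 1.87e-22). Prosalpha3T rose by 0.44 (SE 0.05) and Prosbeta2R1 by 0.35 (SE 0.04).

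Rpt3R, the copy of a different ATPase, fell by 0.27 (SE 0.03, limma, adjusted p = 1.63e-10), with 24.8 to 39.2 TPM at 29 °C (median 28.2) against 31.0 to 47.2 TPM at 18 °C (median 35.6). Its general partner Rpt3 rose by 0.25. Prosbeta2R2 fell by 0.21 (SE 0.04) and Prosalpha4T1 by 0.12 (SE 0.04), while Prosbeta2 and Prosalpha4 rose. Against 25 °C, 11 copies were higher and 1 (Rpt3R) lower at 29 °C (36.3% of all genes higher, 26.7% lower). At 25 against 18 °C, 2 were higher (Rpt4R by 0.37, Prosalpha3T by 0.23) and 4 lower: Prosbeta2R2 by -0.18, Prosalpha4T2 by -0.12, Prosalpha4T1 by -0.11 and Rpt3R by -0.11. Over all genes 64.1% passed there (31.8% higher, 32.4% lower), so these counts do not mark the copies. Of 35 testis markers, 18 rose and 3 fell at 29 against 18 °C (42.9% of all genes higher, 34.9% lower). Their median was 0.09, and their part in the copies' change was not tested.

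Other genes of the pathway also shifted with temperature, in a list of 19 that holds regulators, ubiquitin genes, assembly and shuttle factors, and Sem1. At 29 against 18 °C, 16 rose and 3 fell (42.9% of all genes higher, 34.9% lower), with a median of 0.20. The polyubiquitin gene Ubi-p5E fell, with 429 to 578 TPM at 29 °C against 698 to 869.6 TPM at 18 °C and no overlap (log2 -0.62, SE 0.02, limma, adjusted p = 3e-29). The other polyubiquitin gene, Ubi-p63E, fell by 0.11 (SE 0.02) and the deubiquitinase Usp14 by 0.05 (SE 0.02). The largest rises were those of ntc, whose product is an F-box protein needed in the male germ line (0.40, SE 0.03), and of REG, an activator that caps the core in place of the regulatory particle, at 68.7 to 80.0 TPM at 29 °C against 52.3 to 62.2 TPM at 18 °C (0.38, SE 0.02). The core assembly factor Pomp rose by 0.33. The transcription factor cnc, a relative of mammalian Nrf1 that drives proteasome genes, rose by 0.20 (SE 0.02), and its inhibitor Keap1 by 0.34 (SE 0.03).

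Each FLucDM-GFP strain was next compared with w1118 over the 3 temperatures (9 libraries each). The question was whether a misfolding-prone protein in a given compartment goes with a change in proteasome transcripts. All 5 comparisons share the w1118 libraries. General subunits changed little and in both directions. At least 13 of the 15 T or R copies were lower than in w1118 in 4 strains. In Mito 2 copies 8 were lower, and fewer under the other scalings.

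Of the 32 general subunits, 6 rose and 9 fell in Cyto 1 copy (66.4% of all genes passed), 9 rose and 11 fell in NLS 1 copy (68.8%), 9 rose and 7 fell in NLS 2 copies (67.1%), 3 rose and 11 fell in Mito 1 copy (63.2%), and 2 rose and 3 fell in Mito 2 copies (55.9%; 19.6% higher). The medians lay between -0.03 and 0.01, beside -0.05 to -0.01 for all genes. The balance of higher and lower depended on the scaling of the libraries. With quantile normalization, 15 rose and 5 fell in Cyto 1 copy, 17 and 1 in NLS 1 copy, 17 and 3 in NLS 2 copies, 10 and 5 in Mito 1 copy, and 5 and 3 in Mito 2 copies. With median-ratio size factors the same strains gave 9 and 8, 14 and 4, 17 and 3, 4 and 7, and 9 and 1. A direction for the general subunits as a group against w1118 is therefore not given.

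Some single subunits kept their direction under all 3 scalings. Prosbeta1 and Rpt1 were picked out after their values were seen, and so was Prosbeta6 in NLS 1 copy and NLS 2 copies. Prosbeta5 was higher in all 5 strains: 206 to 284 TPM in Cyto 1 copy (median 218), 192 to 297 TPM in NLS 1 copy (median 219), 212 to 291 TPM in NLS 2 copies (median 245), 198 to 271 TPM in Mito 1 copy (median 228) and 192 to 276 TPM in Mito 2 copies (median 213), against 188 to 253 TPM in w1118 (median 208). These ranges span the 3 temperatures and overlap. The log2 fold changes were 0.14, 0.14, 0.25, 0.12 and 0.10 in that order of strains (SE 0.03 each, limma, adjusted p between 9.57e-10 and 0.00365). In NLS 1 copy the difference was more positive at 29 than at 18 °C by 0.34, so its average need not hold at 18 °C.

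Prosbeta2 was higher in 4 strains, by 0.21 in Cyto 1 copy, 0.21 in NLS 1 copy, 0.19 in NLS 2 copies and 0.08 in Mito 1 copy. The last of these (adjusted p = 0.0196, limma) was lost without any one of Mito 1 copy at 25 °C replicate 1, Mito 1 copy at 29 °C replicate 1 or w1118 at 29 °C replicate 1 (adjusted p up to 0.0704). In Mito 2 copies Prosbeta2 had 0.03 (adjusted p = 0.355) and passed with median-ratio size factors alone (0.08, adjusted p = 0.0236). In NLS 1 copy its difference from w1118 was more positive at 29 than at 18 °C by 0.34, so that average too need not hold at 18 °C. Prosbeta6, a beta subunit without an active site, was higher in all 5 strains, by 0.09 to 0.13. Prosbeta1, in contrast, was lower in all 5 strains by 0.10 to 0.13, although the call was lost in NLS 1 copy with either other scaling and in Mito 2 copies with median-ratio size factors.

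In the alpha ring, Prosalpha4 was higher by 0.18 in NLS 1 copy and 0.22 in NLS 2 copies. In the beta ring, Prosbeta4 was higher by 0.11 in NLS 1 copy and 0.20 in NLS 2 copies. The value for NLS 1 copy averages over a reversal described below. There Prosbeta4 lay below w1118 at 18 °C and above it at 29 °C (change in the difference 0.48). In the base, Rpn1 was higher by 0.13 in Cyto 1 copy and the ATPase Rpt3 by 0.12 in Cyto 1 copy, 0.13 in NLS 1 copy and 0.15 in NLS 2 copies. The ATPase Rpt1 was lower in all 5 strains, with medians of 131 to 134 TPM against 142 TPM in w1118. The log2 fold changes lay between -0.15 and -0.11 (SE 0.02), and the one in NLS 1 copy did not pass with quantile normalization.

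**Figure D3:**
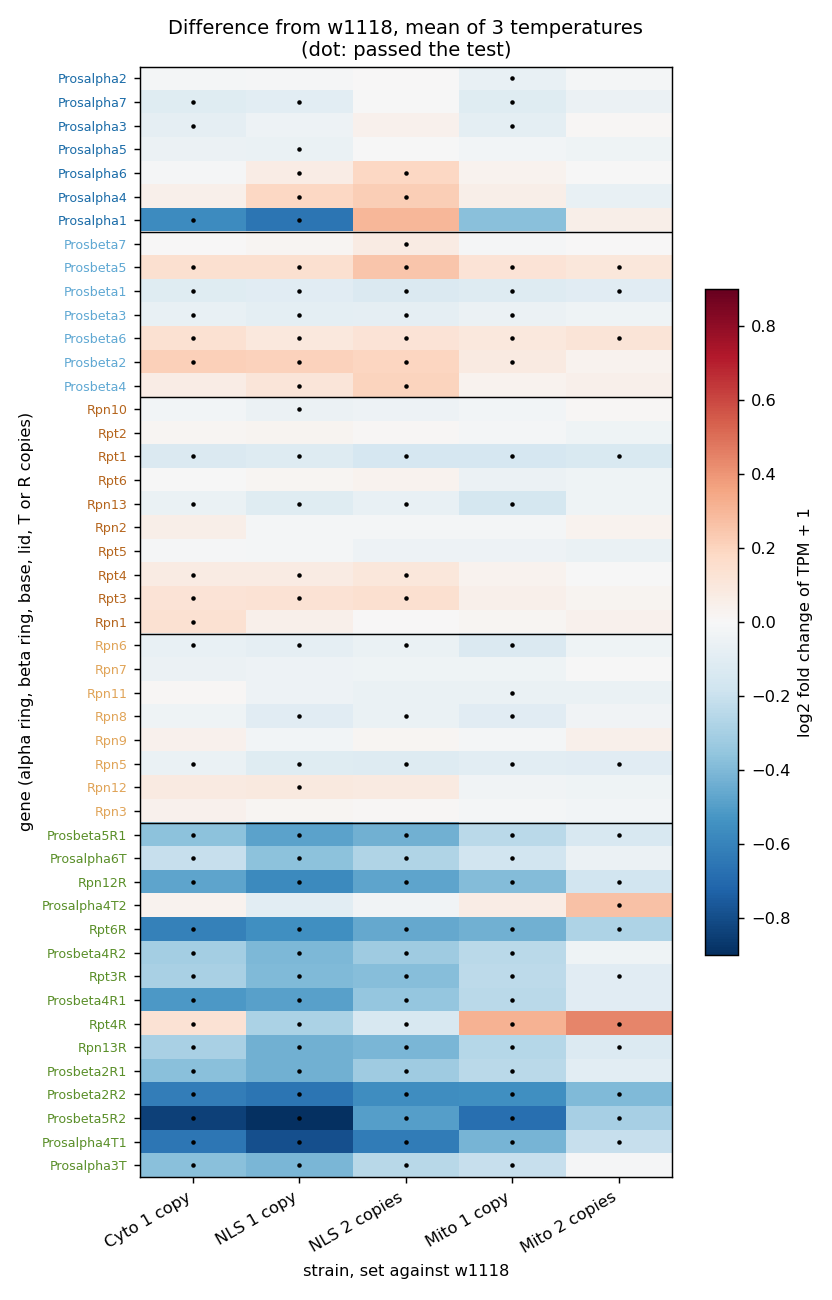
Log2 fold change of TPM + 1 of each FLucDM-GFP strain (columns) over w1118, averaged over 3 temperatures, for each gene (down the page by class). A dot marks a change that passed the test. The copies in the lower block are mostly lower, with Rpt4R and Prosalpha4T2 standing apart, and the general subunits above them show small changes in both directions.

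Most of the T or R copies were lower in the FLucDM-GFP strains. Of 15, 13 fell and 1 rose in Cyto 1 copy, 14 fell in NLS 1 copy, 14 fell in NLS 2 copies, 13 fell and 1 rose in Mito 1 copy, and 8 fell and 2 rose in Mito 2 copies. The share of all genes that fell was 35.3%, 38.3%, 41%, 36.7% and 36.3% in the same order. Medians over the copies were -0.38, -0.44, -0.38, -0.24 and -0.10. In Mito 2 copies the number that fell depended on the scaling. Over all 47 genes, 4 rose and 11 fell there. This became 7 and 9 with quantile normalization, and 11 and 6 with median-ratio size factors. Set beside the counts of the general subunits above, fewer copies fell under either scaling. As summed TPM, the copies stood at 568 to 681 in Cyto 1 copy, 550.5 to 665 in NLS 1 copy, 563 to 725 in NLS 2 copies, 606 to 741 in Mito 1 copy and 659.5 to 922 in Mito 2 copies, against 707 to 1005 in w1118. Over the 3 temperatures, Cyto 1 copy and NLS 1 copy did not overlap w1118, and the other strains did. As a share of the TPM of all 47 genes, the copies made up 9.46% to 12.2% in NLS 1 copy and 12.6% to 14.9% in Mito 2 copies, against 13.3% to 16.6% in w1118.

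Prosbeta5R2, a copy of the chymotrypsin-like subunit, showed the largest fall in 3 of the strains. Its libraries lay at 18.8 to 24.3 TPM in Cyto 1 copy (median 22.9), 19.9 to 24.1 TPM in NLS 1 copy (median 20.95), 25.1 to 33.2 TPM in NLS 2 copies (median 28.9), 21.0 to 28.9 TPM in Mito 1 copy (median 25.8) and 28.3 to 41.6 TPM in Mito 2 copies (median 30.7), against 34.3 to 52.6 TPM in w1118 (median 40.7). All libraries of the first 4 strains lay below all of w1118. The log2 fold changes were -0.84, -0.90, -0.49, -0.68 and -0.30 (SE 0.05 each, limma, adjusted p between 3.04e-20 and 8.07e-07).

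Prosalpha4T1 was lower by 0.65 in Cyto 1 copy, 0.79 in NLS 1 copy, 0.63 in NLS 2 copies, 0.42 in Mito 1 copy and 0.21 in Mito 2 copies (SE 0.06). Its w1118 libraries lay at 29.7 to 39.2 TPM, above all those of Cyto 1 copy (14.9 to 25.3 TPM), NLS 1 copy (15.6 to 22.2 TPM) and NLS 2 copies (19.1 to 25.8 TPM). Prosbeta2R2 was lower by 0.62, 0.65, 0.56, 0.55 and 0.40 in the same order of strains (SE 0.05). Rpt6R was lower by 0.61 in Cyto 1 copy, 0.43 in Mito 1 copy and 0.28 in Mito 2 copies. Rpn12R was lower by 0.48 in NLS 2 copies. Neither gene was lower in these strains alone. Rpt6R had a median of 51.67 TPM in NLS 1 copy and 53.58 TPM in NLS 2 copies, against 76.51 TPM in w1118. For Rpn12R the medians were 64.23, 59.44, 60.52, 68.64 and 74.04 TPM in the same order of strains, against 82.78 TPM in w1118.

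Rpt4R and Prosalpha4T2 differed from the other copies in some strains. Rpt4R was higher by 0.13 in Cyto 1 copy, 0.31 in Mito 1 copy (SE 0.05, limma, adjusted p = 5.79e-07) and 0.44 in Mito 2 copies (SE 0.05, adjusted p = 4.23e-10), and lower with -0.28 in NLS 1 copy (SE 0.05, adjusted p = 2.73e-06) and with -0.14 in NLS 2 copies (adjusted p = 0.0092). The call in NLS 2 copies was lost with either other scaling. At 29 °C it had 62.0, 59.6 and 59.5 TPM in Mito 2 copies, against 36.4, 34.8 and 35.7 TPM in w1118, with no overlap. Prosalpha4T2 was higher in Mito 2 copies by 0.27 (SE 0.05, adjusted p = 3.19e-06). In the remaining 4 strains it missed the threshold, though it passed in Mito 1 copy with quantile normalization (0.13) and median-ratio size factors (0.10).

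Testis markers moved with the copies. Of 35, 31 fell in Cyto 1 copy, 33 in NLS 1 copy, 31 in NLS 2 copies, 32 in Mito 1 copy and 19 in Mito 2 copies, with medians of -0.29, -0.47, -0.40, -0.30 and -0.12. In the first 4 strains the sole marker that rose was Mst84Db, and ProtB rose with it in Mito 2 copies. Their summed level was 14367 to 18445 TPM in Cyto 1 copy, 14053 to 16561 TPM in NLS 1 copy, 14186 to 18054 TPM in NLS 2 copies, 14866 to 18578 TPM in Mito 1 copy and 16869 to 22118 TPM in Mito 2 copies, against 17453 to 24620 TPM in w1118. None of the 35 was at 0 in every library. The summed copies came to 3.43% to 4.19% of the summed testis markers in the 54 libraries. Whether the copies' fall is part of a fall in testis RNA was not tested.

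In the pathway list, PI31, a regulator that binds the core, was lower in all 5 strains, at 154.5 to 189.7 TPM in Cyto 1 copy, 149 to 181 TPM in NLS 1 copy, 141 to 173 TPM in NLS 2 copies, 155 to 179.7 TPM in Mito 1 copy and 153 to 204 TPM in Mito 2 copies, against 189 to 239.6 TPM in w1118. The log2 fold changes were -0.30, -0.34, -0.41, -0.30 and -0.27 (SE 0.02 each, limma, adjusted p at most 8.2e-13). Uch-L5R, a gene related to the deubiquitinase Uch-L5, fell by 0.59 in NLS 1 copy, 0.56 in NLS 2 copies, 0.39 in Mito 1 copy, 0.27 in Cyto 1 copy and 0.21 in Mito 2 copies. Ubi-p5E was higher in all 5 strains, by 0.28 in Cyto 1 copy and 0.06 to 0.20 in the others, and maf-S, the small Maf partner of cnc, in 4, most in Mito 1 copy (0.28, SE 0.03). Of the 19, 6 rose and 7 fell in Cyto 1 copy, 4 and 9 in NLS 1 copy, 4 and 8 in NLS 2 copies, 4 and 8 in Mito 1 copy, and 1 and 6 in Mito 2 copies. Over all genes, 66.4%, 68.8%, 67.1%, 63.2% and 55.9% passed in the same order, so these counts do not mark the list.

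The response to temperature was not the same in every strain. Within each strain the median 29 minus 18 °C difference of the core genes was 0.15 in Cyto 1 copy, 0.36 in NLS 1 copy, 0.30 in NLS 2 copies, 0.30 in Mito 1 copy and 0.36 in Mito 2 copies, against 0.13 in w1118. For the regulatory particle it was 0.16, 0.29, 0.19, 0.33 and 0.29 in the same strains, against 0.13 in w1118. In w1118 the summed core was at 2519.9 to 2669 TPM at 18 °C, 2404 to 2523 TPM at 25 °C and 2757 to 2968 TPM at 29 °C, lowest at 25 °C. For the copies the median difference was -0.02, 0.08, 0.22, -0.02 and 0.30, against 0.35 in w1118. The test of the difference asks, gene by gene, whether strain minus w1118 was different at 29 °C and at 18 °C.

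**Figure D4:**
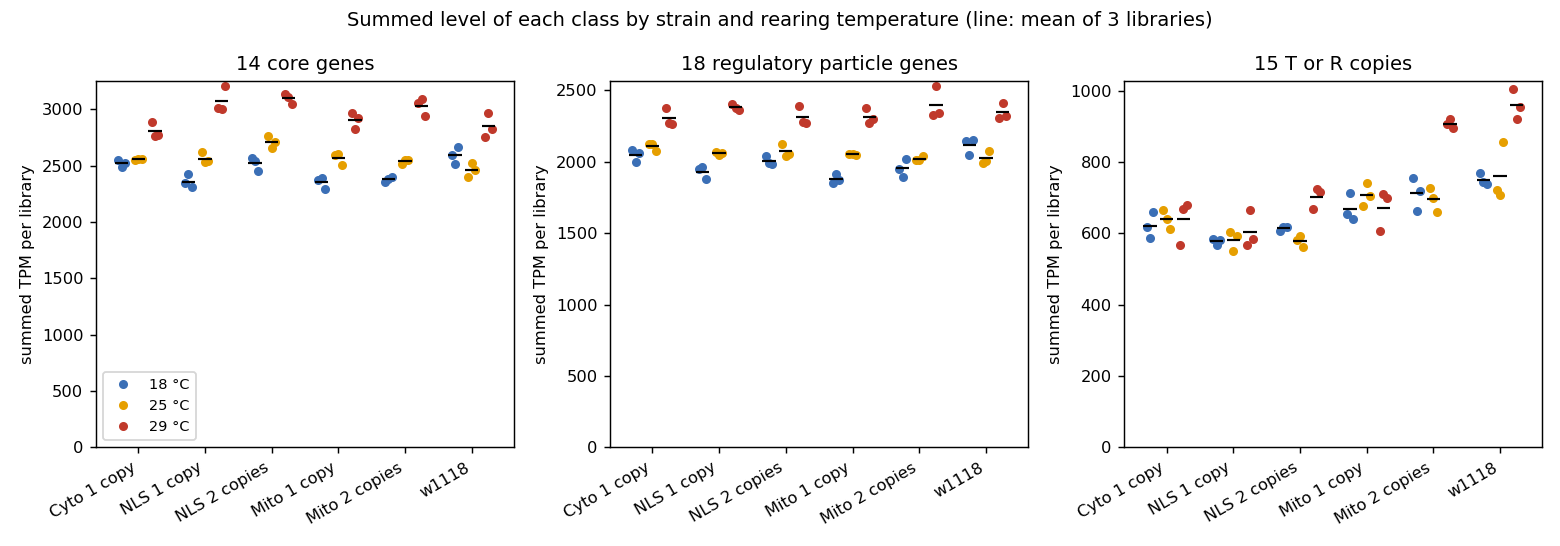
Summed TPM per library of the 14 core genes, the 18 regulatory particle genes and the 15 copies by strain and rearing temperature, with w1118 at the right of each panel. Bars mark the mean of 3 libraries. Core and regulatory particle sums are highest at 29 °C in every strain, and the copies are high at 29 °C in Mito 2 copies (896 to 922 TPM) and w1118 (920.4 to 1005 TPM).

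For the 32 general subunits, the difference from w1118 was more positive at 29 than at 18 °C for 19 in NLS 1 copy (9.77% of all genes passed in that direction), 17 in Mito 1 copy (13.1%), 12 in Mito 2 copies (9.36%), 5 in NLS 2 copies (10.5%) and 1 in Cyto 1 copy (17.9%). For none was it more negative. The medians were 0.20, 0.17, 0.16, 0.11 and 0.03, beside -0.01, 0.04, 0.03, 0.01 and 0.06 for all genes. With quantile normalization the counts were 28, 28, 10, 16 and 11, and with median-ratio size factors 19, 14, 8, 1 and 0, the last with 3 in the negative direction. Cyto 1 copy therefore has no direction that holds across scalings, and in NLS 2 copies a single call was left under median-ratio size factors. The share of all genes that passed was computed with the values as deposited only.

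Prosbeta4 showed the pattern most clearly. At 29 °C it had 177, 179 and 206 TPM in NLS 1 copy, against 143, 156 and 150.1 TPM in w1118. At 18 °C the order was the reverse: 147, 149 and 148 TPM in NLS 1 copy, against 166, 161 and 171 TPM in w1118. No library of NLS 1 copy overlapped w1118 at either temperature, and the change in the difference was 0.48 (SE 0.08, limma, adjusted p = 1.39e-05). In NLS 1 copy the same change was 0.36 for Prosalpha6, 0.34 for Prosbeta2 and 0.34 for Prosbeta5 (SE 0.07 each).

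In Mito 2 copies, Prosbeta3 had 272, 277 and 265 TPM at 29 °C, against 246, 250.0 and 249.8 TPM in w1118. At 18 °C it had 213, 197 and 201 TPM in Mito 2 copies, against 247, 237 and 234 TPM in w1118. The strain lay above w1118 at 29 °C and below it at 18 °C without overlap (0.36, SE 0.05, limma, adjusted p = 1.15e-06). Rpn3 changed by 0.31 in Mito 2 copies and 0.28 in Mito 1 copy. Among general subunits that passed in Mito 1 copy, where all changes were positive, the largest were those of the lid subunit Rpn12 (0.37, SE 0.09) and the ATPase Rpt3 (0.34, SE 0.08). Rpt3 had 108, 99.5 and 106 TPM at 29 °C in Mito 1 copy, against 86.6, 97.7 and 88.4 TPM in w1118, and 76.0, 72.9 and 86.2 TPM at 18 °C in Mito 1 copy, against 86.9, 85.2 and 87.7 TPM in w1118.

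Changes of the T or R copies were mostly negative in the strains with 1 transgene copy. The difference from w1118 was more negative at 29 than at 18 °C for 10 of 15 in Mito 1 copy (15% of all genes passed in that direction), 9 in Cyto 1 copy (14.4%), 7 in NLS 1 copy (15.5%), 3 in NLS 2 copies (9.4%) and none in Mito 2 copies (6.09%). It was more positive for Rpt4R in Cyto 1 copy, a call lost in 12 of 18 alternatives (adjusted p up to 0.189), and for Rpt4R and Rpt3R in Mito 2 copies. Medians were -0.37 in Mito 1 copy, -0.35 in Cyto 1 copy, -0.29 in NLS 1 copy, -0.21 in NLS 2 copies and -0.01 in Mito 2 copies.

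Rpn13R, the copy of the ubiquitin receptor Rpn13, had 29.4, 32.6 and 32.8 TPM in Cyto 1 copy at 29 °C, against 49.9, 47.3 and 45.7 TPM in w1118. At 18 °C it had 34.2, 31.7 and 34.0 TPM in Cyto 1 copy, against 34.9, 33.8 and 28.8 TPM in w1118. The groups overlapped at 18 °C and were apart at 29 °C, and the change in the difference was -0.62 (SE 0.12, limma, adjusted p = 0.000153). It was -0.60 in Mito 1 copy and -0.53 in NLS 1 copy. Prosalpha4T2 changed by -0.52 in Cyto 1 copy, -0.52 in NLS 1 copy and -0.53 in Mito 1 copy.

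The counts for Cyto 1 copy and NLS 2 copies over all 47 genes moved with the scaling. They were 2 more positive and 9 more negative in Cyto 1 copy, which became 12 and 7 with quantile normalization and 0 and 15 with median-ratio size factors. In NLS 2 copies 5 and 3 became 16 and 3, and 1 and 6. For Mito 1 copy 17 and 10 became 28 and 10, and 14 and 10.

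Single libraries also moved these counts. Over all 47 genes, the 8 calls of NLS 2 copies became 1 without w1118 at 29 °C replicate 1, 3 without w1118 at 29 °C replicate 3, 5 without w1118 at 18 °C replicate 1 and 2 without w1118 at 18 °C replicate 3. They became 5 without NLS 2 copies at 18 °C replicate 2, 2 without NLS 2 copies at 18 °C replicate 3 and 2 without NLS 2 copies at 29 °C replicate 1. The 11 calls of Cyto 1 copy became 6 without Cyto 1 copy at 29 °C replicate 1. The 26 calls of NLS 1 copy became 17 without w1118 at 29 °C replicate 1, and the 27 of Mito 1 copy became 17 without Mito 1 copy at 29 °C replicate 1. The 14 calls of Mito 2 copies became 8 without Mito 2 copies at 29 °C replicate 2, 9 without Mito 2 copies at 18 °C replicate 2 and 9 without w1118 at 29 °C replicate 3.

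The testis markers changed beside the copies: 25 of 35 had a more negative difference at 29 °C in Cyto 1 copy, 25 in NLS 1 copy, 7 in NLS 2 copies, 23 in Mito 1 copy and 1 in Mito 2 copies. In w1118 their sum was 22125 to 24620 TPM at 29 °C, against 18953 to 19168 TPM at 18 °C. Their part in the result was not tested.

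Strains with 2 and 1 copies of the same transgene were compared directly. For NLS, 6 core genes, no regulatory particle gene and 3 T or R copies were higher with 2 copies and none was lower (28.1% of all genes passed). Prosbeta5R2 was higher by 0.40 (SE 0.05, limma, adjusted p = 6.62e-09), Prosalpha4T1 by 0.17 and Rpt4R by 0.14, and of these the Prosalpha4T1 and Rpt4R calls were lost when single libraries were left out (adjusted p up to 0.0758 and 0.0877). For Mito, 14 of the 15 T or R copies were higher with 2 transgene copies and none lower (42.2% of all genes passed, 18.9% higher), with a median of 0.15 beside -0.02 for all genes. Prosbeta5R2 was higher by 0.38 (SE 0.05, limma, adjusted p = 2e-08), Prosalpha4T1 by 0.21, Rpn12R by 0.21 and Prosbeta4R2 by 0.20. Of the general subunits 6 were higher and 1, Prosalpha4, was lower by 0.12, which became 3 and 4 with quantile normalization and 9 and 1 with median-ratio size factors. Over all 47 genes 20 rose and 1 fell, which became 17 and 4 with quantile normalization. The number that passed was 13 in place of 21 without Mito 1 copy at 18 °C replicate 3. Testis markers were higher for 31 of 35 in this comparison and their part in it was not tested.

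Between compartments at 1 transgene copy, differences among general subunits were few. In NLS against Cyto 1 copy, 2 general subunits rose (Prosalpha4 by 0.14, Prosalpha6 by 0.07) and 2 fell (32.1% of all genes passed, 9.51% higher and 22.6% lower), while 4 T or R copies fell. These were Rpt4R by 0.41, Prosalpha6T by 0.16, Rpn13R by 0.14 and Prosalpha4T2 by 0.12. Over all 47 genes the split of 2 higher and 6 lower became 4 and 2 with quantile normalization and 3 and 2 with median-ratio size factors. The number that passed, 8, was 5 without Cyto 1 copy at 25 °C replicate 2, NLS 1 copy at 25 °C replicate 2 or NLS 1 copy at 29 °C replicate 3, and 14 without NLS 1 copy at 29 °C replicate 2.

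In Mito against Cyto 1 copy, 6 general subunits fell (26.4% of all genes passed, 9.69% higher and 16.8% lower), led by Prosbeta2 at -0.13, Rpn1 at -0.11, Rpn12 at -0.11 and Rpn13 at -0.10, and 6 T or R copies rose, led by Prosbeta4R1 at 0.27, Prosalpha4T1 at 0.23, Rpt4R at 0.19 and Rpt6R at 0.18. The even split became 8 higher and 3 lower with median-ratio size factors. In Mito against NLS 1 copy, 14 of 15 T or R copies rose (31.1% of all genes passed, 19.2% higher), with Rpt4R at 0.60 (SE 0.05, limma, adjusted p = 2.85e-12), Prosalpha4T1 at 0.37, Prosbeta4R1 at 0.24 and Prosbeta5R1 at 0.24. Here 5 general subunits fell (Prosalpha4 and Prosbeta2 by 0.13, Rpn12 by 0.12 and Rpt3 by 0.09 among them), and 11 did with quantile normalization and 9 with median-ratio size factors. Of 35 testis markers, 25 were lower and none higher in NLS than in Cyto 1 copy (median -0.17), 2 were higher and 2 lower in Mito than in Cyto 1 copy, and 27 were higher and none lower in Mito than in NLS 1 copy. Of 13 accessory gland markers, 12 were higher and 1 lower in NLS than in Cyto 1 copy. The part of either list in these differences was not tested.

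Prosalpha1 stood apart from the other core genes. It lies on 2R at 7827303 to 7828678, and the annotation places a gene named Prosalpha1R next to it on the same strand, at 7830413 to 7831771. The deposited table lists that gene under its older symbol CG30382, which the symbol rule does not reach. Its level was 374 TPM on average, beside 38.2 TPM for Prosalpha1. Prosalpha1 made up 3.67% to 20.97% of the sum of both, with libraries of the same group far apart, such as 37.2, 67.2 and 19.7 TPM in Mito 2 copies at 18 °C. The highest values were 76.9, 113 and 73.6 TPM in NLS 2 copies at 29 °C. How the authors' counting divided reads between these near copies is not given in the sources used here, so the value of either gene alone is uncertain.

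**Figure D5:**
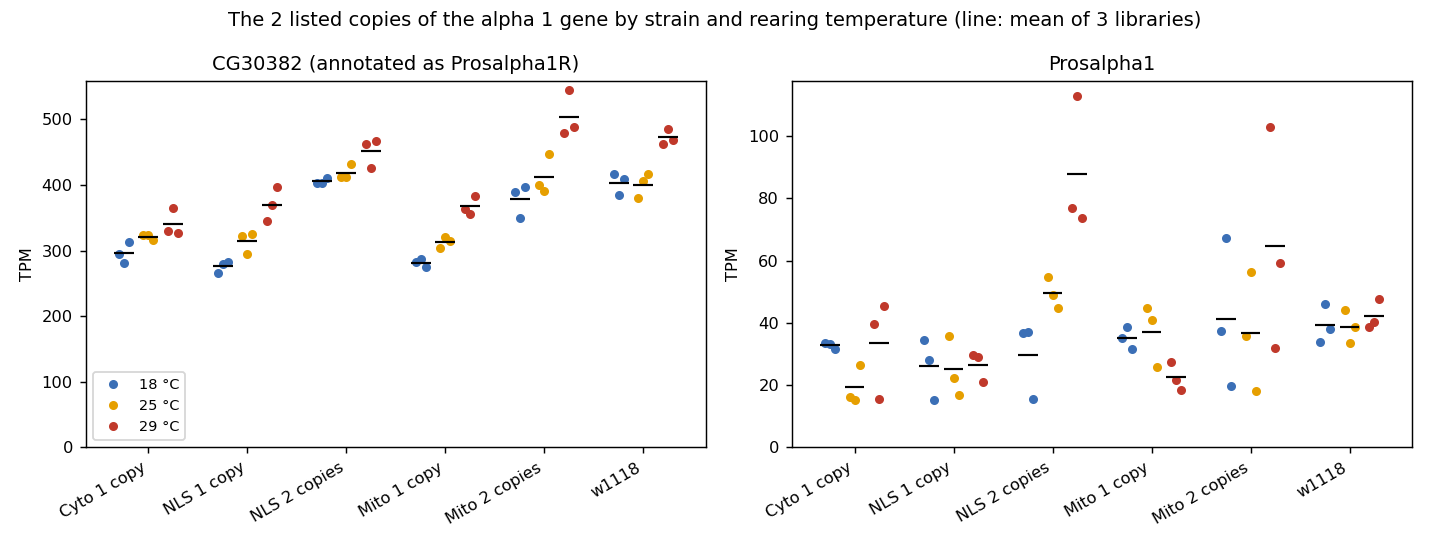
TPM per library of CG30382, annotated as Prosalpha1R (left), and of Prosalpha1 (right), by strain and rearing temperature, with w1118 at the right of each panel and bars at the mean of 3 libraries. CG30382 lies lower in the strains with 1 transgene copy than in NLS 2 copies, Mito 2 copies and w1118 at each temperature, and Prosalpha1 scatters widely within groups.

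Taken alone, Prosalpha1 was lower in Cyto 1 copy (-0.57) and NLS 1 copy (-0.66, SE 0.22, limma, adjusted p = 0.00836) than in w1118, and higher in NLS 2 copies than in NLS 1 copy (0.95, SE 0.22, adjusted p = 0.000979). At 29 against 18 °C it had 0.28 (SE 0.16, adjusted p = 0.0968).

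CG30382 was lower in the strains with 1 transgene copy than in those with 2 copies and in w1118, which carries no transgene. It thus did not follow the number of copies. At 18 °C it had 294, 281 and 314 TPM in Cyto 1 copy, 266, 279 and 283 TPM in NLS 1 copy and 282, 288 and 275 TPM in Mito 1 copy, against 416.5, 384 and 409 TPM in w1118. With 2 transgene copies it had 403, 403 and 411 TPM in NLS and 389, 350.1 and 397 TPM in Mito at the same temperature. All libraries of the strains with 1 copy lay below all the others at 18 °C, and the same held at 25 °C (at most 325 TPM against at least 379.5 TPM) and at 29 °C (at most 396 TPM against at least 425 TPM). Averaged over temperatures, it was lower than in w1118 by 0.41 in Cyto 1 copy, 0.42 in NLS 1 copy and 0.41 in Mito 1 copy (SE 0.03 each, limma, adjusted p between 1.47e-14 and 2.87e-14). The log2 fold change was 0.00 in NLS 2 copies (adjusted p = 0.961) and 0.01 in Mito 2 copies (adjusted p = 0.749). Against 1 copy, 2 copies gave 0.42 in NLS and 0.42 in Mito.

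The sum of both genes, a measure added after seeing the data, depends little on how counted reads were divided between them. Any reads left out for matching both genes would still be missing, and whether there were such reads is unknown. The sum was 314 to 380.1 TPM in Cyto 1 copy (median 342), 298.5 to 417 TPM in NLS 1 copy (median 342) and 307 to 402 TPM in Mito 1 copy (median 348). In NLS 2 copies it was 426 to 541 TPM (median 467) and in Mito 2 copies 417 to 582 TPM (median 447), against 424 to 527 TPM in w1118 (median 450.3). The sum was lower than in w1118 by 0.42, 0.43 and 0.40 in Cyto, NLS and Mito 1 copy (SE 0.02 each, limma, adjusted p at most 1.38e-18), and differed by 0.04 in NLS 2 copies (adjusted p = 0.091) and 0.03 in Mito 2 copies (adjusted p = 0.231). Apart from Prosalpha1 itself, the largest difference of a core gene from w1118 in these 3 strains was 0.21, for Prosbeta2 in Cyto 1 copy. At 29 against 18 °C the sum rose by 0.31 (SE 0.02, adjusted p = 2.96e-20), close to the median of 0.29 over the core genes.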

How the data were processed

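Expression was given as TPM in 1 table of 54 libraries, deposited by the authors. Per the labels' protocols, TRIzol was used to isolate the RNA, and the library kit was Illumina's TruSeq RNA v2. The submitters' processing notes name the builds BDGP6 and dm6. The aligner and the counting tool were not given in the sources used here. TPM keeps no read counts, so depth is unknown and no counting interval is given.

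Values were analysed as log2(TPM + 1), so fold changes of low genes are understated. Genes with at least 1 TPM in 3 or more libraries were kept (12555 of 13926). A mean per group (18 groups, 36 residual degrees of freedom) was fitted in limma 3.58.1 under R 4.3.3, with a trended, moderated two-sided test, and Benjamini-Hochberg adjustment ran over all genes within each of 18 comparisons, with calls at 0.05. The method was tested on simulated data with independent noise, for some of these comparisons. Such data cannot test the scaling of the libraries or dependence between replicates. The comparisons over strains give each temperature equal weight, and those over temperatures each strain.

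Members, gene lists and tests were chosen with earlier results of these data known. Genes were named by rule: the 2 highest and 2 lowest of each class, up to 4 of the largest calls in each direction per comparison, each copy beside its general subunit, and the 2 largest calls of the pathway list. Other genes given with values, such as Prosbeta5, Rpn11, Pomp, cnc and Keap1 for temperature, count as chosen after their values were seen. The same holds for CG30382 and its sum with Prosalpha1. Same-numbered replicates do not pair the libraries: in 4 of 153 pairs of groups were all 3 correlations of their deviations over 0.1. Alternatives were a pseudocount of 0.1, no filter, quantile normalization, median-ratio size factors, a replicate block, only the strains compared, and leaving out each library. No sequences are shown.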

Additional observations from a re-analysis of the deposited data

Results flagged for a closer look

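The difference between a FLucDM-GFP strain and w1118 was not the same at 29 and at 18 °C for 11 of the 47 genes in Cyto 1 copy, 26 in NLS 1 copy, 8 in NLS 2 copies, 27 in Mito 1 copy and 14 in Mito 2 copies, by a test of the change itself (limma, Benjamini-Hochberg adjusted p under 0.05). Over all genes tested, 32.4%, 25.3%, 19.9%, 28% and 15.5% passed in the same order of strains. In Cyto 1 copy and NLS 2 copies the 47 genes thus passed at a lower rate than all genes. The 33 results given here are the largest, up to 4 in each direction per strain. Values are changes in the log2 difference, 29 minus 18 °C, and all 5 strains share the w1118 libraries.

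In Cyto 1 copy the change was 0.31 for Rpt4R and 0.17 for Rpn5, and it was -0.62 for Rpn13R, -0.60 for Prosalpha3T, -0.53 for Prosalpha4T1 and -0.52 for Prosalpha4T2. The Rpt4R call was lost in 12 of 18 alternatives (adjusted p up to 0.189) and the Rpn5 call in 4 (up to 0.213). In NLS 1 copy it was 0.48 for Prosbeta4, 0.36 for Prosalpha6, 0.34 for Prosbeta2 and 0.34 for Prosbeta5, with -0.53 for Rpn13R, -0.52 for Prosalpha4T2, -0.44 for Prosalpha4T1 and -0.43 for Prosbeta5R1. The Prosalpha4T1 call was lost in 6 of 18 alternatives.

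In NLS 2 copies Prosalpha1 had 1.49 (SE 0.54, adjusted p = 0.0467), a call lost in 10 of 18 alternatives, and its division of reads with CG30382 is uncertain. In the same strain Prosbeta4 had 0.25, Prosalpha4 0.24, Prosalpha3 0.18, Prosbeta4R2 -0.35, Prosbeta5R1 -0.33 and Prosalpha4T2 -0.31. Of the same 18 alternatives, these calls were lost in 3 for Prosbeta4, 9 for Prosalpha4, 7 for Prosalpha3, 5 for Prosbeta4R2, 7 for Prosbeta5R1 and 11 for Prosalpha4T2.

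In Mito 1 copy the change was 0.37 for Rpn12, 0.34 for Rpt3, 0.29 for Prosbeta4 and 0.28 for Rpn3, and -0.60 for Rpn13R, -0.58 for Prosalpha3T, -0.53 for Prosalpha4T2 and -0.48 for Prosbeta2R1. In Mito 2 copies it was 0.56 for Rpt4R, 0.36 for Rpt3R, 0.36 for Prosbeta3 and 0.31 for Rpn3. Without Mito 1 copy at 29 °C replicate 1 the Prosalpha3T and Prosbeta2R1 calls of Mito 1 copy were lost, and without Mito 2 copies at 18 °C replicate 2 the Rpt3R call of Mito 2 copies. The testis marker values given beside the copies in the report apply to these genes too, and their part was not tested.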

How the results depend on the processing

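The number of the 47 genes that passed was recomputed under each alternative. Apart from leaving out single libraries, which is given below and also moved some counts this far, it moved by over 1.5 times in these cases. With quantile normalization the change between 29 and 18 °C against w1118 gave 19 calls for Cyto 1 copy (11 in the report) and 19 for NLS 2 copies (8). With only the strains compared in the model it gave 5 for NLS 2 copies. NLS against Cyto 1 copy gave 5 calls with median-ratio size factors and 5 with only the strains compared (8 in the report). The cause was not tested.

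Leaving out 1 library at a time gave 27 to 31 calls for Cyto 1 copy, 30 to 34 for NLS 1 copy, 27 to 32 for NLS 2 copies, 25 to 29 for Mito 1 copy and 13 to 18 for Mito 2 copies against w1118. For temperature it gave 43 to 44 (29 against 18 °C), 27 to 29 (25 against 18 °C) and 43 to 44 (29 against 25 °C). For the change between 29 and 18 °C against w1118 it gave 6 to 11 for Cyto 1 copy, 17 to 28 for NLS 1 copy, 1 to 10 for NLS 2 copies, 17 to 30 for Mito 1 copy and 8 to 19 for Mito 2 copies. It gave 6 to 11 for NLS 2 against 1 copies, 13 to 21 for Mito 2 against 1 copies, 5 to 14 for NLS against Cyto 1 copy, 8 to 15 for Mito against Cyto 1 copy and 15 to 20 for Mito against NLS 1 copy.

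A replicate block moved no count by over 1.5 times: it gave 43 calls for 29 against 18 °C and 25 for the change in NLS 1 copy (26 in the report). Of 124 named gene results, 103 kept their call under every alternative run. Over all 3118 alternatives of these results, 2983 kept the call, 135 lost it and 0 changed sign. Unknown depth limits what can be said of low genes.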
